A study of Mus musculus with 2 samples.

Results

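Cdkn1a, Cdkn1b, Cdkn1c, Cdkn2c and Cdkn2d encode inhibitors of cyclin-dependent kinases that have been named as targets of menin in other tissues. These 5 genes were chosen by symbol, as known targets, from the 33938 genes listed in single-nucleus RNA-seq data of embryonic mouse neocortex. Earlier results of these data were known when they were chosen. All 5 were found in the gene table. The data hold 1 library labelled with the genotype MEN1-NCKO and 1 labelled MEN1-F/F, made from micro-dissected embryonic neocortex with the 10x Genomics 3' version 3 chemistry and sequenced on an Illumina NovaSeq. No embryonic age, number of pooled embryos, Cre driver or deleted part of Men1 is stated in the labels, and neither is an agent or further allele that both libraries share.

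Menin is a scaffold of the MLL1 and MLL2 histone methyltransferase complexes, which place methyl marks on histone H3 at active promoters. In mouse endocrine cells, loss of menin is known to lower Cdkn1b and Cdkn2c, whose products hold cells out of the cycle. Inhibitors of the CIP/KIP family, p21 (Cdkn1a), p27 (Cdkn1b) and p57 (Cdkn1c), bind several cyclin-kinase complexes, and in the developing cortex p27 and p57 are known for their part in cell cycle exit and migration. Inhibitors of the INK4 family, here p18 (Cdkn2c) and p19 (Cdkn2d), bind CDK4 and CDK6 alone and so act on the D-type cyclin step.

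After filtering, the NCKO-labelled library held 9807 nuclei with a median of 3579 UMIs (unique molecules counted) and the F/F-labelled library held 6130 nuclei with a median of 3663.5 UMIs. The libraries shared 15 barcodes. Clusters were named from fixed marker lists, and each class name below stands for nuclei like that cell type by those markers. Of 50 clusters 33 were named, and 25.4% of NCKO-labelled and 21.9% of F/F-labelled nuclei stayed unnamed. A level is given in CPM, the UMIs of a gene scaled to 1000000 UMIs of that library and class. The intervals are 95% intervals that cover counting error only. With 1 library per label there is no replicate spread and no test, and each difference is between these 2 libraries. In these pooled values, fewer expressing cells and less RNA per cell cannot be told apart. Nuclei with markers of striatal or lateral ganglionic eminence (LGE) neurons, which are not neocortical, made up 10.3% of NCKO-labelled and 11.1% of F/F-labelled nuclei.

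Men1 was not lower over all nuclei of the NCKO-labelled library, which had 554 Men1 UMIs, 13.4 CPM (12.3 to 14.6), against 278 UMIs and 10.4 CPM (9.19 to 11.7) in the F/F-labelled library. In dividing classes it had 11 UMIs, 7.20 CPM, in the NCKO-labelled library and 29 UMIs, 22.9 CPM, in the F/F-labelled library, a ratio of 0.315 (0.142 to 0.649). These 40 UMIs over both libraries lie under the minimum of 50 UMIs from which a fold is read below. In postmitotic classes the NCKO-labelled level of Men1 was the higher one, at 13.7 CPM against 9.97 CPM in the F/F-labelled library (ratio 1.38, 1.15 to 1.66). How many other genes had such intervals in dividing or in postmitotic classes is not given, so neither ratio is set against a background. Counts from the 3' end do not check the label where the deleted part lies upstream, so the libraries are called by their labels and every direction below rests on those labels.

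The results below turn on Cdkn1b, ENSMUSG00000003031, at 134920401 to 134925513 of chromosome 6 (GRCm38, plus strand). It is protein coding and overlaps no other annotated gene. Its promoter is shown because menin complexes act at promoters. The 250 bases before the RefSeq start, at chr6:134920151-134920400 on the plus strand (GRCm38.p6), hold 28 CG pairs, against a median of 6 over 32851 promoter windows of the same length. The window was searched on both strands for the GC box GGGCGG, the CCAAT box CCAAT, the E2F motif TTTCGCGC, the forkhead motif GTAAACA and the E-box CACGTG, and capitals mark each match.
Cdkn1b promoter: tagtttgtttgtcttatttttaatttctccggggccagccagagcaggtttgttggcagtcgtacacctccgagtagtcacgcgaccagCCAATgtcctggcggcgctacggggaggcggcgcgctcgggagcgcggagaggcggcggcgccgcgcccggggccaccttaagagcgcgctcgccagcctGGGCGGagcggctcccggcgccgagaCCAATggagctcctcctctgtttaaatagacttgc
It held 1 GC box, which 32.74% of all windows hold, and 2 CCAAT boxes, which 33.85% hold at least once. The E2F, forkhead and E-box letters were not in this window and occur in 0.2557%, 3.166% and 6.021% of windows. A match of letters is not a measured binding site.

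The other members lie apart from each other in the genome. Cdkn1a is on chromosome 17 (29090976 to 29100727, plus strand), Cdkn1c on chromosome 7 (143458339 to 143461050, minus strand), Cdkn2c on chromosome 4 (109660876 to 109667189, minus strand) and Cdkn2d on chromosome 9 (21288410 to 21291407, minus strand). Cdkn1c shares 892 bases with the antisense gene Gm44732, which is also counted in these data. The labels do not state the counting strand, and whether reads of that pair were mixed was not tested.

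The first question was where in the neocortex each inhibitor was found, and above all whether it marked dividing or postmitotic nuclei. Radial glia, intermediate progenitors and ganglionic eminence progenitors were counted as the dividing classes, with 584 NCKO-labelled and 470 F/F-labelled nuclei. Migrating, upper-layer, layer 5 and layer 6 excitatory neurons, interneurons derived from the medial (MGE) and caudal (CGE) eminence and striatal neurons were counted as the postmitotic classes, with 6122 NCKO-labelled and 4040 F/F-labelled nuclei. The CGE-derived class holds cluster 26, with 86 NCKO-labelled and 60 F/F-labelled nuclei and summed cycle genes at 1598 CPM, so the postmitotic group includes cycling nuclei, while cluster 20 of the radial glia stood at 777 CPM. No subplate class could be named. Summed S, G2 and M phase genes stood at 2707 CPM in NCKO-labelled dividing nuclei, against 339 CPM in NCKO-labelled postmitotic nuclei. In the F/F-labelled library they stood at 2840 CPM in dividing and 330 CPM in postmitotic nuclei, so the label of the dividing classes fits its cycle markers in both libraries. Oligodendrocyte precursors, at 2255 CPM of cycle genes in the NCKO-labelled and 2491 CPM in the F/F-labelled library, also cycled and belong to neither group.

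Cdkn1b was higher in the dividing than in the postmitotic classes of both libraries. In the NCKO-labelled library it had 87 UMIs, 57.0 CPM (45.6 to 70.3), in dividing and 222 UMIs, 8.66 CPM (7.56 to 9.88), in postmitotic classes, a ratio of 6.58 (5.07 to 8.46). In the F/F-labelled library it had 48 UMIs, 37.9 CPM (27.9 to 50.2), in dividing and 260 UMIs, 14.9 CPM (13.1 to 16.8), in postmitotic classes, a ratio of 2.54 (1.83 to 3.47). A difference of this kind was common, since 38.5% of 14388 genes in the NCKO-labelled library and 37.8% of 13572 genes in the F/F-labelled library had an interval above 1. On the log2 of CPM + 5 the dividing level of Cdkn1b was higher by 2.18 in the NCKO-labelled and by 1.11 in the F/F-labelled library. Without CGE-derived interneurons these values were 2.22 in the NCKO-labelled and 1.18 in the F/F-labelled library. Both reported values are past 1.5-fold, as were 25.1% of genes in the NCKO-labelled and 26.2% in the F/F-labelled library.

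Cdkn1c and Cdkn1a, the other CIP/KIP genes, were not set apart between dividing and postmitotic nuclei beyond counting error. Cdkn1c had 10 UMIs, 6.55 CPM, in dividing and 210 UMIs, 8.20 CPM, in postmitotic nuclei of the NCKO-labelled library, with a ratio of 0.799 (0.378 to 1.5). In the F/F-labelled library it had 7 UMIs, 5.52 CPM, in dividing and 136 UMIs, 7.79 CPM, in postmitotic nuclei, with a ratio of 0.709 (0.280 to 1.5). Both ratios lie within counting error of 1. Cdkn1a, the effector of the p53 response, had 47 UMIs in the whole NCKO-labelled library and 36 in the F/F-labelled one, of which 1 in each library came from dividing classes, so no order can be read for it at this depth.

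Beyond counting error, the INK4 gene Cdkn2c was also higher in dividing nuclei of both libraries, and Cdkn2d in those of the NCKO-labelled one. Intervals above 1 were common here, at 38.5% of genes in the NCKO-labelled and 37.8% in the F/F-labelled library. The Cdkn2c UMIs of both groups were together under the minimum from which a fold is read. Its ratios are thus not read as folds or set against these shares. Cdkn2c had 16 UMIs, 10.5 CPM (5.99 to 17), in dividing and 10 UMIs, 0.390 CPM, in postmitotic nuclei of the NCKO-labelled library, a ratio of 26.8 (11.5 to 66.2). For the F/F-labelled library 6 UMIs, 4.73 CPM (1.74 to 10.3), lay in dividing and 6 UMIs, 0.344 CPM, in postmitotic nuclei, a ratio of 13.8 (3.68 to 51.5). Cdkn2d had 19 UMIs, 12.4 CPM, in dividing and 111 UMIs, 4.33 CPM, in postmitotic nuclei of the NCKO-labelled library, a ratio of 2.87 (1.67 to 4.70). The F/F-labelled library held 9 Cdkn2d UMIs, 7.10 CPM, in dividing and 59 UMIs, 3.38 CPM, in postmitotic nuclei, and the ratio of 2.10 (0.916 to 4.27) lies within counting error of 1.

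**Figure D1:**
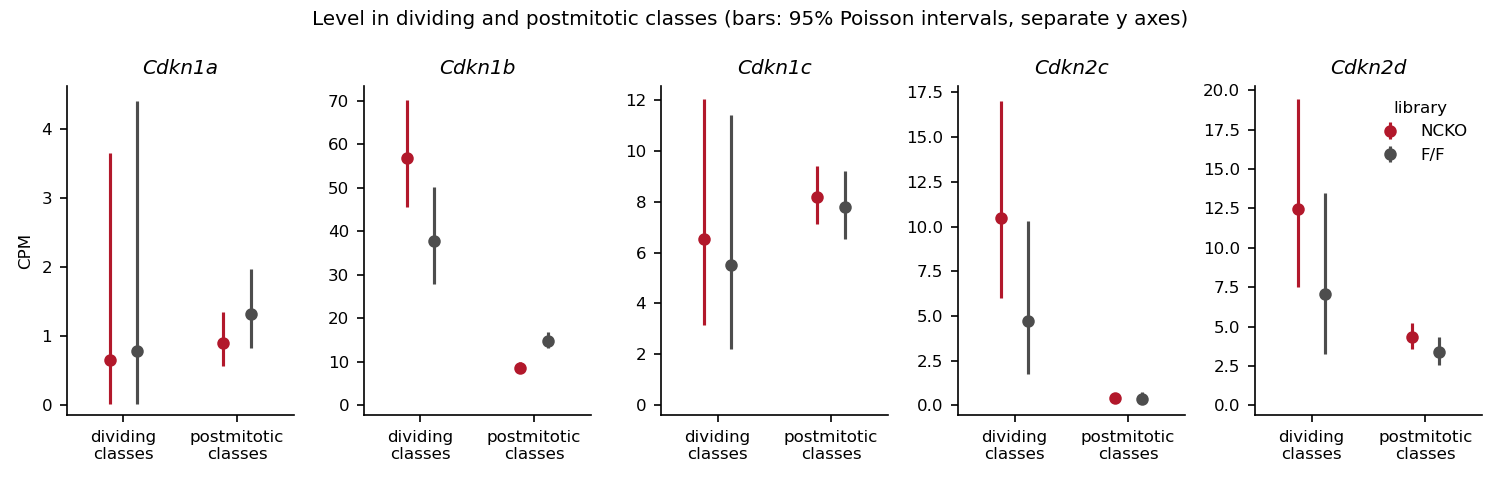
Level in CPM (y axis, a separate scale for each gene) of the 5 CDK inhibitor genes in dividing and postmitotic classes of the NCKO-labelled (red) and F/F-labelled (grey) library, with 95% Poisson intervals as bars. Cdkn1b and Cdkn2c stand higher in dividing classes of both libraries, while the 4 intervals of Cdkn1c and those of Cdkn1a overlap.

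Within the dividing classes, the INK4 genes were higher in cycling nuclei of the NCKO-labelled library, and less firmly counted in the F/F-labelled one. The share of all genes with such a difference was not determined for this split. Both INK4 genes were under the minimum here, so no fold is read for them. For this split each nucleus was thinned to 1000 UMIs, and nuclei with at least 2 different S, G2 or M genes were set against nuclei with none. The shallower nuclei left out were 10 in the NCKO-labelled and 8 in the F/F-labelled library, and the levels given are from the unthinned counts. Cdkn2c had 16 UMIs, 27.2 CPM, in the 188 cycling NCKO-labelled nuclei and 0 UMIs in the 262 nuclei with no cycle gene. The exact lower limit of this ratio was 4.10. In the F/F-labelled library Cdkn2c had 6 UMIs, 11.9 CPM, in the 171 cycling nuclei and 0 UMIs in the 199 others (lower limit 1.20). Its thinned counts there were 3 UMIs in cycling and 0 in other nuclei, where the lower limit of 0.481 does not exclude 1. Cdkn2d had 15 UMIs, 25.5 CPM, in cycling and 1 UMI, 1.60 CPM, in other NCKO-labelled progenitors, a ratio of 16.0 (2.46 to 672). In F/F-labelled progenitors it had 7 UMIs, 13.9 CPM, in cycling and 2 UMIs, 3.92 CPM, in other nuclei, a ratio of 3.55 (0.677 to 35.1), which lies within counting error of 1.

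Cdkn1b was not higher in the cycling nuclei of the dividing classes. In the NCKO-labelled library it had 35 UMIs, 59.5 CPM (41.4 to 82.8), in cycling and 34 UMIs, 54.3 CPM (37.6 to 75.9), in other progenitors, a ratio of 1.10 (0.664 to 1.81). F/F-labelled progenitors had 11 UMIs, 21.9 CPM (10.9 to 39.2), in cycling and 27 UMIs, 52.9 CPM (34.9 to 77.0), in other nuclei, a ratio of 0.414 (0.185 to 0.862). The ratio NCKO over F/F was 2.72 (1.35 to 5.93) in cycling progenitors and 1.03 (0.601 to 1.77) in progenitors with no cycle gene. The UMIs of both libraries in cycling progenitors were together under the minimum from which a fold is read. How many other genes had such intervals in this split was not determined, so these ratios are not set against a background. This split of the libraries was chosen after values had been seen, and the difference between the ratios was not tested. Thinned counts behind the cycling values were 7 UMIs in the NCKO-labelled and 1 UMI in the F/F-labelled library. Over all kept nuclei, where no class name enters, cycling nuclei had 78 UMIs, 30.2 CPM, in the NCKO-labelled and 36 UMIs, 23.3 CPM, in the F/F-labelled library, with a ratio of 1.30 (0.864 to 1.98) that lies within counting error of 1.

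**Figure D2:**
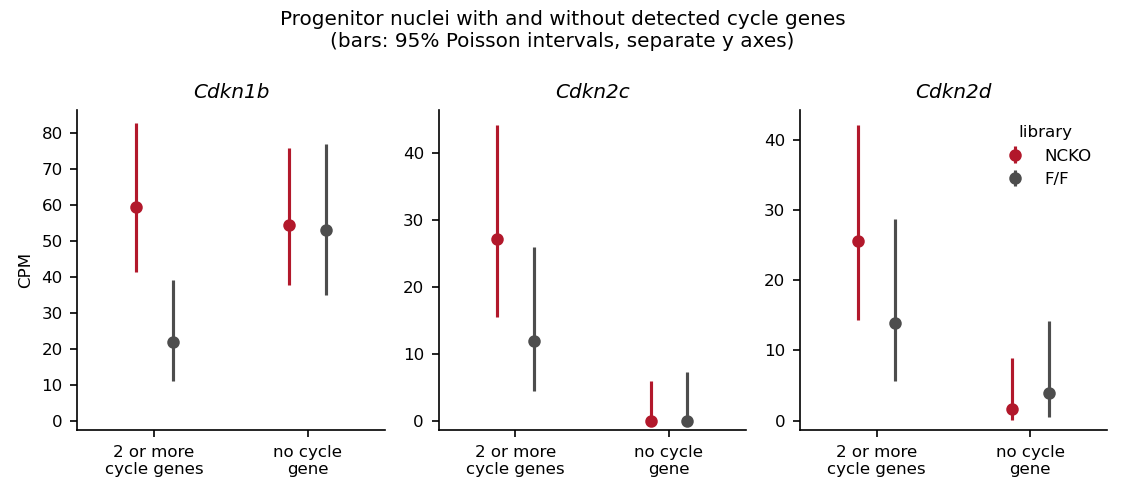
Level in CPM (y axis, a separate scale for each gene) of Cdkn1b, Cdkn2c and Cdkn2d in nuclei of the dividing classes with at least 2 detected cycle genes and with none, in the NCKO-labelled (red) and F/F-labelled (grey) library, with 95% Poisson intervals as bars. Cdkn2c stands at 0 UMIs in progenitors with no cycle gene, and Cdkn1b has its lowest value, 21.9 CPM, in cycling F/F-labelled progenitors.

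Cdkn1b levels were then ordered across the 10 classes that had 100 or more nuclei per library. By the mean of the libraries it was highest in intermediate progenitors, with 73.3 CPM in the NCKO-labelled and 42.7 CPM in the F/F-labelled library, and in radial glia, with 54.2 CPM in NCKO-labelled and 39.5 CPM in F/F-labelled nuclei. Oligodendrocyte precursors (21.8 CPM NCKO-labelled, 35.5 CPM F/F-labelled), CGE-derived interneurons (15.4 CPM NCKO-labelled, 37.0 CPM F/F-labelled) and migrating excitatory neurons (17.1 CPM NCKO-labelled, 29.6 CPM F/F-labelled) followed. The intervals of neighbours in this order overlapped in both libraries, with 2 exceptions. Radial glia lay above oligodendrocyte precursors beyond counting error in the NCKO-labelled library, and migrating neurons lay above upper-layer neurons beyond it in both. Layer 5 neurons were lowest, with 15 UMIs, 4.38 CPM, in the NCKO-labelled and 12 UMIs, 7.60 CPM, in the F/F-labelled library.

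Among the other members the intervals of all neighbours in the order overlapped in both libraries. By the mean of the libraries Cdkn1c was highest in upper-layer neurons, with 69 UMIs, 10.5 CPM, in the NCKO-labelled and 62 UMIs, 11.3 CPM, in the F/F-labelled library, and lowest in striatal neurons, at 3.38 CPM in the NCKO-labelled and 3.33 CPM in the F/F-labelled library. The NCKO-labelled library had its highest Cdkn1c value in intermediate progenitors (14.7 CPM, 5 UMIs) and the F/F-labelled library in oligodendrocyte precursors (11.8 CPM, 5 UMIs). By the same mean Cdkn2d was highest in intermediate progenitors, with 5 UMIs, 14.7 CPM, in the NCKO-labelled and 2 UMIs, 4.50 CPM, in the F/F-labelled library, where radial glia stood at 6.08 CPM from 4 UMIs. Cdkn2c was found with 0 UMIs in MGE-derived interneurons of both libraries, and Cdkn1a with 0 UMIs in migrating excitatory neurons and CGE-derived interneurons of both.

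**Figure D3:**
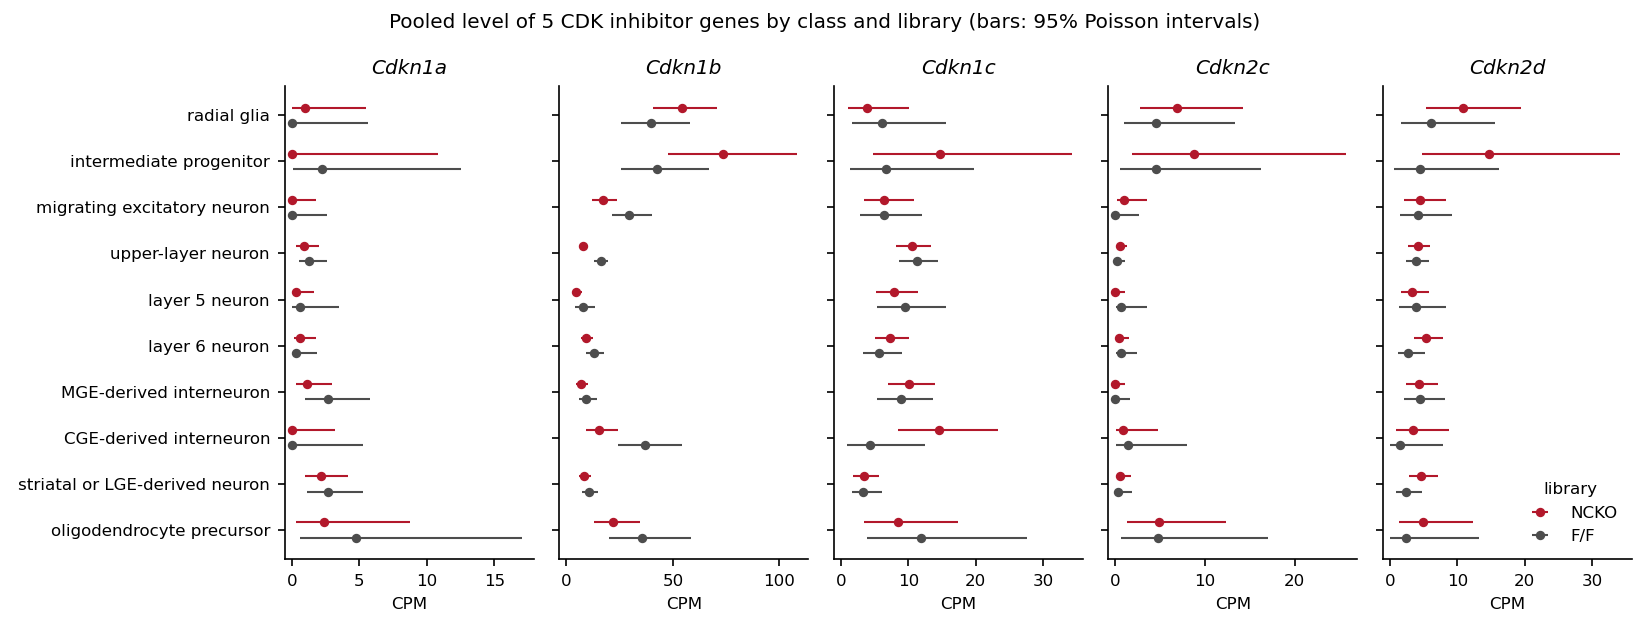
Level in CPM (x axis, a separate scale for each gene) of each CDK inhibitor gene in the 10 compared classes (rows), in the NCKO-labelled (red, upper point) and F/F-labelled (grey, lower point) library, with 95% Poisson intervals as bars. The red points of Cdkn1b in radial glia and intermediate progenitors lie right of its other red points, while its grey intervals there overlap those of oligodendrocyte precursors, and its red points lie left of its grey points in the other 8 classes.

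The second question was whether the inhibitors differed between the genotype labels. Over all kept nuclei all 5 members passed the minimum of 50 UMIs over both libraries and none was past 1.5-fold on the log2 of CPM + 5, where 0.419% of 17173 genes were past it as higher and 0.757% as lower. Intervals that left out 1 were far more common, above 1 for 25.6% and below 1 for 20% of these genes, so counting error is a low bar between these libraries. Cdkn1b had 465 UMIs, 11.3 CPM, in the NCKO-labelled and 416 UMIs, 15.5 CPM, in the F/F-labelled library, a ratio of 0.727 (0.635 to 0.831). Cdkn2d had 194 UMIs, 4.70 CPM, in the NCKO-labelled and 93 UMIs, 3.47 CPM, in the F/F-labelled library, a ratio of 1.36 (1.05 to 1.76). The ratios of Cdkn1a (0.849, 0.538 to 1.35), Cdkn1c (1.09, 0.921 to 1.28) and Cdkn2c (1.64, 0.918 to 3.07) lie within counting error of 1.

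In postmitotic nuclei Cdkn1b was lower in the NCKO-labelled library, at the 8.66 CPM against 14.9 CPM given above, a ratio of 0.582 (0.484 to 0.698). Its log2 ratio of -0.54 falls just short of 1.5-fold. In this comparison 0.457% of 15333 genes were past 1.5-fold as higher and 1.05% as lower, and 19.5% had an interval below 1. Cdkn1c (ratio 1.05, 0.844 to 1.31) and Cdkn2d (1.28, 0.926 to 1.79), the other 2 members over the minimum there, lie within counting error of 1. The value for Cdkn1b held over 10 clusterings of the nuclei, with ratios between 0.571 and 0.621 and all 10 intervals below 1.

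The Cdkn1b ratio NCKO over F/F had a value below 1 in each of the 7 postmitotic classes, and 3 of these intervals lay below 1. Upper-layer neurons had 51 UMIs, 7.77 CPM (5.78 to 10.2), in the NCKO-labelled and 88 UMIs, 16.0 CPM (12.9 to 19.7), in the F/F-labelled library, a ratio of 0.485 (0.336 to 0.692). Migrating excitatory neurons had 35 UMIs, 17.1 CPM, in the NCKO-labelled and 42 UMIs, 29.6 CPM, in the F/F-labelled library, a ratio of 0.578 (0.358 to 0.928). In CGE-derived interneurons the ratio was 0.417 (0.215 to 0.791), from 18 UMIs in the NCKO-labelled and 26 in the F/F-labelled library. Intervals below 1 were found for 16.2% of genes over the minimum in upper-layer neurons, 10.6% in migrating neurons and 7.16% in CGE-derived interneurons. In CGE-derived interneurons Cdkn1b itself, with 44 UMIs over both libraries, was under that minimum. Among the 5 classes in which Cdkn1b was over the minimum, it was past 1.5-fold as lower in upper-layer neurons (log2 ratio -0.72, as 3.33% of genes) and migrating neurons (-0.65, as 4.07% of genes). The ratios of layer 5 (0.576, 0.252 to 1.35), layer 6 (0.722, 0.460 to 1.14), MGE-derived (0.742, 0.396 to 1.40) and striatal neurons (0.769, 0.461 to 1.29) lie within counting error of 1. Of the striatal clusters, cluster 4 had a ratio of 0.996 and cluster 7 one of 0.577. Unnamed nuclei, outside these classes, stood at 8.66 CPM (7.07 to 10.5) in the NCKO-labelled and 10.3 CPM (8.08 to 13.0) in the F/F-labelled library. Their largest clusters had ratios of 0.957 (cluster 5), 1.40 (cluster 6) and 0.818 (cluster 9), and each interval held 1.

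Upper-layer neurons came from 4 clusters that the libraries filled unequally. Cluster 1 held 670 NCKO-labelled and 498 F/F-labelled nuclei, and its Cdkn1b level was 6.88 CPM in the NCKO-labelled and 7.37 CPM in the F/F-labelled library (ratio 0.933, 0.494 to 1.78). Cluster 2 held 429 NCKO-labelled and 678 F/F-labelled nuclei at 16.0 CPM in the NCKO-labelled and 25.5 CPM in the F/F-labelled library (0.626, 0.361 to 1.05). Cluster 12 held 380 NCKO-labelled and 67 F/F-labelled nuclei, with 5 UMIs in each library, at 3.34 CPM in the NCKO-labelled and 17.2 CPM in the F/F-labelled one (0.194, 0.0447 to 0.844). Cluster 32 held 69 NCKO-labelled and 49 F/F-labelled nuclei, with 1 UMI, 3.76 CPM, in the NCKO-labelled and 4 UMIs, 22.4 CPM, in the F/F-labelled library (0.168, 0.00340 to 1.69). The class difference thus mixes levels within clusters with the shares of the clusters, and with the cluster weights of the F/F-labelled library used for both, the log2 ratio was -0.45, short of 1.5-fold.

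**Figure D4:**
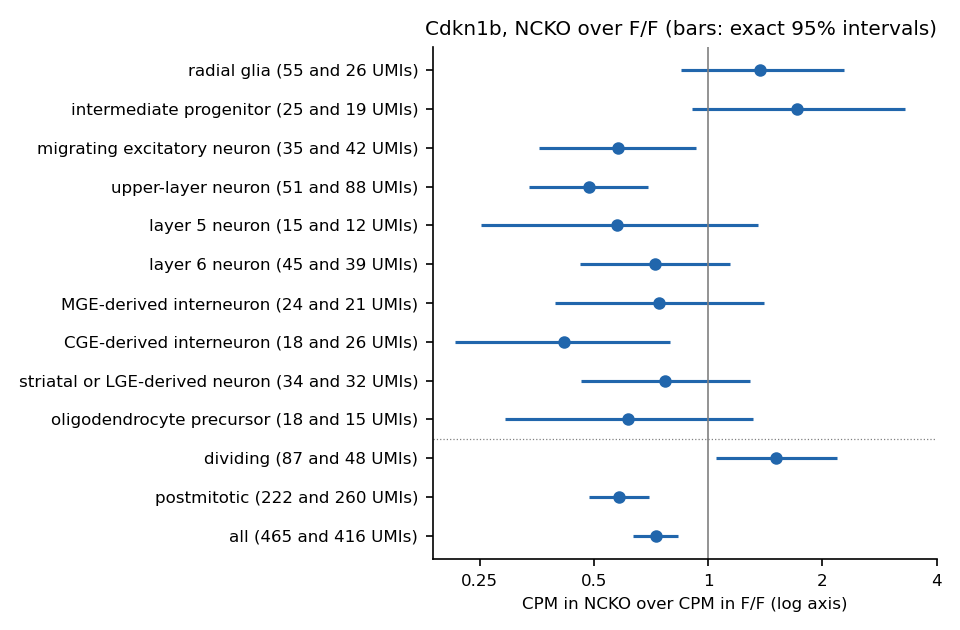
Ratio of the Cdkn1b level in the NCKO-labelled over the F/F-labelled library (x axis, log scale) by class, and for dividing, postmitotic and all kept nuclei under the dotted line, with exact 95% intervals as bars and the UMIs of the NCKO-labelled and then the F/F-labelled library in the row names. All 7 postmitotic classes and oligodendrocyte precursors lie left of 1, and radial glia and intermediate progenitors lie right of it.

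In dividing nuclei the Cdkn1b value ran the other way, at 57.0 CPM in the NCKO-labelled against 37.9 CPM in the F/F-labelled library, a ratio of 1.5 (1.05 to 2.19). The direction was the same over the 10 clusterings, but the ratio ranged from 1.09 to 1.58 and 7 of the 10 intervals held 1, so this difference is not set apart from counting error. It was the only member over the minimum there, and its log2 ratio of 0.53 is short of 1.5-fold, which 5.78% of 8406 genes passed as higher, while 10.9% had an interval above 1. Radial glia had 55 UMIs, 54.2 CPM, in the NCKO-labelled and 26 UMIs, 39.5 CPM, in the F/F-labelled library (ratio 1.37, 0.845 to 2.28). Intermediate progenitors had 25 UMIs, 73.3 CPM, in the NCKO-labelled and 19 UMIs, 42.7 CPM, in the F/F-labelled library (1.72, 0.908 to 3.3). The summed cycle genes moved with Cdkn1b in intermediate progenitors, at 2643 CPM in NCKO-labelled against 1765 CPM in F/F-labelled nuclei, and against it in radial glia, at 2073 CPM in NCKO-labelled against 2706 CPM in F/F-labelled nuclei. Their part in the result was not tested. Ganglionic eminence progenitors, with 64 NCKO-labelled and 67 F/F-labelled nuclei, had 7 Cdkn1b UMIs in the NCKO-labelled and 3 in the F/F-labelled library (2.24, 0.512 to 13.4).

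The clusters behind these progenitor classes did not share a direction. Of the intermediate progenitor clusters, cluster 18 had 23 Cdkn1b UMIs, 84.3 CPM, in the NCKO-labelled and 12 UMIs, 32.8 CPM, in the F/F-labelled library (ratio 2.57, 1.23 to 5.66). Cluster 40 had 2 UMIs in the NCKO-labelled and 7 in the F/F-labelled library (0.333, 0.0338 to 1.75). Over the intermediate progenitor class the 25 NCKO-labelled UMIs lay in 17 of 128 nuclei and the 19 F/F-labelled UMIs in 19 of 178. Some NCKO-labelled nuclei thus held more than 1 UMI, which the intervals do not cover. The 4 radial glia clusters had ratios from 0.672 in cluster 39, with 65 NCKO-labelled and 11 F/F-labelled nuclei, to 2.40 in cluster 20, with 159 NCKO-labelled and 64 F/F-labelled nuclei, and each of their intervals held 1. Among the 4 clusters of migrating neurons the ratio was 0.392 (0.186 to 0.794) in cluster 13, and the other intervals held 1.

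Cdkn2c and Cdkn2d also had higher values in NCKO-labelled dividing nuclei, within counting error. The ratio NCKO over F/F was 2.21 (0.823 to 6.91) for Cdkn2c, from 16 UMIs in the NCKO-labelled and 6 in the F/F-labelled library. It was 1.75 (0.755 to 4.40) for Cdkn2d, from 19 NCKO-labelled and 9 F/F-labelled UMIs, and 1.19 (0.407 to 3.67) for Cdkn1c, from 10 NCKO-labelled and 7 F/F-labelled UMIs. All 3 intervals hold 1, so no direction is set apart from counting error for these genes at this depth.

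Over the 10 compared classes none of Cdkn1a, Cdkn1c, Cdkn2c and Cdkn2d had an interval on one side of 1, but only 3 of their 40 class values were over the minimum of 50 UMIs. Among the 80449 gene by class values over it, 11.5% had an interval above 1 and 10.7% below. The nearest of the members was Cdkn1c in CGE-derived interneurons, with 17 UMIs, 14.6 CPM, in the NCKO-labelled and 3 UMIs, 4.27 CPM, in the F/F-labelled library (ratio 3.41, 0.988 to 18.2). In the same interneurons Cdkn1b had 18 UMIs in the NCKO-labelled and 26 in the F/F-labelled library, so the Cdkn1b interval given above lies below 1 where that of Cdkn1c holds 1.

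Lists of cell cycle genes around the inhibitors were read over all kept nuclei first. The lists were drawn up with earlier results of these data known. None of the 5 D-type cyclins and their kinases was past 1.5-fold, with a median log2 ratio of -0.18 against 0.02 for all genes. Cdk6, a kinase that the INK4 proteins bind, had 21.5 CPM in the NCKO-labelled and 30.8 CPM in the F/F-labelled library (log2 ratio -0.43). None of 7 cyclins E, A and B with their kinases (median 0.06), of 13 retinoblastoma and E2F genes (0.05), of 24 S phase genes (0.01) and of 30 G2 and M phase genes (0.06) was past the fold. Of 8 listed genes for the degradation of p27 and its relatives, 6 were over the minimum, none past the fold, with a median of 0.20. Skp2, which marks p27 for degradation, had 47.2 CPM in the NCKO-labelled and 45.5 CPM in the F/F-labelled library.

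All 8 listed genes of menin and its MLL complex were over the minimum, with a median of 0.15 and none past the fold, as were all 5 Polycomb genes, with a median of -0.17. Of 4 FoxO factors, which are known to activate Cdkn1b, 3 were over the minimum, none past the fold, with a median of -0.24. Foxo1 had 35.6 CPM in the NCKO-labelled and 29.5 CPM in the F/F-labelled library (log2 ratio 0.23), and Foxo3 had 26.7 CPM in the NCKO-labelled and 33.9 CPM in the F/F-labelled library (-0.29). Of 18 p53 pathway genes 15 were over the minimum (median 0.04), and of 9 genes of the imprinted cluster of Cdkn1c 6 were (median 0.08), with none past the fold in either list. Of 5 erythroid genes, which read free RNA in these nuclei, 4 were over the minimum, all with higher values in the NCKO-labelled library, and 1 was past the fold (Hbb-bs, 42.7 CPM against 20.6 CPM in the F/F-labelled library). Their median log2 ratio of 0.53 was the largest of these lists, and the part of free RNA in the other values was not tested. Cdkn2a and Cdkn2b, the remaining INK4 genes, were under the minimum, and Cdkn3 had 65 UMIs in the NCKO-labelled and 40 in the F/F-labelled library.

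In postmitotic nuclei Cdk6 was the only listed gene past 1.5-fold apart from Hbb-bs (33.2 CPM in the NCKO-labelled and 20.1 CPM in the F/F-labelled library). Cdk6 had 107 UMIs, 4.18 CPM, in the NCKO-labelled and 249 UMIs, 14.3 CPM, in the F/F-labelled library, a log2 ratio of -1.07. It thus lay lower in the same nuclei as Cdkn1b, while in dividing nuclei it had 240.3 CPM in the NCKO-labelled and 273 CPM in the F/F-labelled library (-0.18). Whether these differences differ was not tested.

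In dividing nuclei 5 listed genes were past 1.5-fold, 1 lower and 4 higher. Ccnd3, a D-type cyclin, was lower, with 24 UMIs, 15.7 CPM, in the NCKO-labelled and 43 UMIs, 33.9 CPM, in the F/F-labelled library. Foxo1 was higher, with 68 UMIs, 44.5 CPM, in the NCKO-labelled and 30 UMIs, 23.7 CPM, in the F/F-labelled library. Eed, a Polycomb subunit (88 NCKO-labelled and 38 F/F-labelled UMIs), Rrm2, a nucleotide-synthesis gene of S phase (42 NCKO-labelled and 21 F/F-labelled UMIs), and Zmat3, a p53 target (60 NCKO-labelled and 30 F/F-labelled UMIs), were higher too. The lists of Eed, Rrm2 and Zmat3 did not share the direction of these genes. Over the minimum, 4 of 5 Polycomb genes had a log2 ratio below 0 (median -0.31). So did 13 of 16 S phase genes (-0.11) and 5 of 8 p53 pathway genes (-0.09). The D-type cyclins and their kinases went the way of Ccnd3, with 3 of 5 below 0 (-0.18). Of 3 FoxO factors 1 was below 0 (0.04), against a median of 0.02 for all genes. Of all genes in that comparison 4.28% were past the fold as lower and 5.78% as higher.

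Each member was last set beside the genes with the most like pattern over the 20 values of 10 classes in 2 libraries. These points share libraries and depth, and the correlations are descriptions. For Cdkn2c the 4 most alike of 10730 genes were Incenp (Pearson r = 0.96), Knl1 (0.96), Top2a (0.96) and Kif4 (0.96), which act in chromosome segregation or its preparation. Cdkn2c had only 60 UMIs over all kept nuclei. No compared class held more than 10 of them, and some values, such as both of MGE-derived interneurons, stood at 0 UMIs. For Cdkn1b the 4 most alike genes were Zfp143 (0.96), Numb (0.95), Phf21a (0.95) and Dleu2 (0.94). The best match of Cdkn2d was Tbc1d22a (0.87), that of Cdkn1a was Bicd2 (0.78) and that of Cdkn1c was Wdr12 (0.73).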

How the data were processed

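The deposited files hold UMI counts per gene and barcode for both libraries, which the authors made, per the file headers, in Cell Ranger 6.1.0, on mm10, per the submitters' processing notes, which also name Seurat. The 5 genes, the lists and the markers were chosen with earlier results of these data known.

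Barcodes with under 500 genes or over 5% mitochondrial UMIs were left out (19 NCKO-labelled and 11 F/F-labelled). Simulated doublets were scored by nearest neighbours, and 924 NCKO-labelled and 336 F/F-labelled barcodes were removed at 0.8% per 1000 barcodes. Clustering used 2000 variable genes, 30 components, 20 neighbours and Leiden at resolution 1. Genes that followed the cycle lists at r over 0.3 were left out of it. That limit, an added split of mixed clusters and a minimum of 50 nuclei for a name were chosen after clusters, markers and their sizes per library had been seen, and the 5 clusterings tried and not kept are alternatives here. A class was compared with at least 100 nuclei in each library.

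CPM were computed here from pooled UMIs, with exact Poisson intervals and, for ratios, exact conditional binomial intervals (95%). A fold was read on the log2 of CPM + 5, where both libraries together held 50 UMIs or more of a gene, and counted from 1.5-fold. The interval code was tested on simulated data. Nuclei were thinned to 1000 UMIs for cycle calls. Named genes were the 5 members, Men1, listed genes and, for each member, the 4 genes of highest Pearson r on log2 of CPM + 5 among those with at least 500 UMIs. Promoters came from RefSeq (GRCm38.p6), positions from GENCODE on GRCm38. Tools were Python 3.11.15, numpy 2.4.6, scipy 1.17.1, pandas 2.3.3, leidenalg 0.10.2, matplotlib 3.10.9, scikit-learn 1.9.0 and python-igraph 0.11.9.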

Additional observations from a re-analysis of the deposited data

Results flagged for a closer look

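Cdkn1b drew attention because its ratio NCKO over F/F lay above 1 in dividing and below 1 in postmitotic classes. The dividing ratio over the postmitotic ratio was 2.59, and over 10 clusterings it ranged from 1.80 to 2.76. With 1 library per label this difference was not tested, and 7 of 10 dividing intervals held 1. Oligodendrocyte precursors, which also cycled but belong to neither group, had a ratio of 0.614 (0.292 to 1.31). Of their clusters, cluster 17 had a ratio of 0.335 (0.123 to 0.889) and cluster 27 one of 1.71 (0.478 to 7.61).

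Cdkn1c drew attention in a class too small for the comparisons, nuclei with pericyte or fibroblast markers. Its level there was 167 CPM (123 to 223) from 46 UMIs in 77 NCKO-labelled nuclei, against 49.9 CPM (18.3 to 109) from 6 UMIs in 34 F/F-labelled nuclei, a ratio of 3.35 (1.43 to 9.60). All 46 NCKO-labelled UMIs came from cluster 44, which held 44 NCKO-labelled and 16 F/F-labelled nuclei. They lay in 22 nuclei. Within that cluster the ratio was 2.97 (1.18 to 9.57), with 5 UMIs in the F/F-labelled library. The share of all genes with an interval above 1 was not determined for this class.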

How the results depend on the processing

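All differences rest on 1 library per label, and depth limits Cdkn1a, Cdkn2c and Cdkn2d in single classes. Of 691 values under alternatives 649 stayed within counting error of the reported value, 41 moved past it and 1 changed sign. The values below are log2 ratios, and the cause of a shift was not tested unless the setting itself changes the scale, as the pseudocount does. The value that changed sign was Cdkn1b dividing over postmitotic in the F/F-labelled library, at -1.24 when dividing nuclei were those with 2 cycle genes at 1000 UMIs, which rests on 1 thinned UMI. Under the same setting Cdkn1b in the NCKO-labelled library was 1.49, Cdkn2c 2.52, Cdkn2d 1.89 (NCKO-labelled) and 2.10 (F/F-labelled), Cdkn1c -1.55 (NCKO-labelled) and -1.45 (F/F-labelled) and Cdkn1a -0.48 (F/F-labelled).

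For Cdkn1b dividing over postmitotic in the NCKO-labelled library, no doublet removal gave 1.54, all barcodes 1.58, and leaving out cycle genes at r over 0.15 or 0.25 gave 1.81 and 1.71. With CPM + 1 it was 2.58 and with CPM + 20 it was 1.43, and Cdkn2c was 3.05 and 0.58. CPM + 1 gave 0.32 for Cdkn2c NCKO over F/F in all nuclei, -0.29 for Cdkn1a NCKO over F/F in postmitotic nuclei and -0.37 for Cdkn1a dividing over postmitotic (F/F-labelled). CPM + 20 gave -0.18 for Cdkn1b NCKO over F/F in all and -0.28 in postmitotic nuclei. Thinned to 1000 UMIs, NCKO over F/F was -0.77 for Cdkn1b, -0.31 for Cdkn1a and 0.51 for Cdkn2d in postmitotic nuclei, and -0.19 for Cdkn1a and 0.43 for Cdkn2d in all nuclei. Thinned dividing over postmitotic in the F/F-labelled library was 0.55 for Cdkn1b, -0.94 for Cdkn1c, 1.17 for Cdkn2d and -0.48 for Cdkn1a. Genes past 1.5-fold over all nuclei numbered 367 with CPM + 1 and 15 with CPM + 20 as higher (72 as reported), and 381 with CPM + 1 and 40 with CPM + 20 as lower (130 as reported). Cdkn1b NCKO over F/F in postmitotic nuclei kept its sign in all 15 alternatives, from -0.77 to -0.28. No paired analysis was possible because each label has 1 library.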
